A study of Mus musculus with 12 samples.

Results

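The genes described here are 10 members of the circulating insulin-like growth factor (IGF) system and of the growth hormone response: Igf1, Igfals, Ghr, Igf1r, Igf2r, Igfbp2, Igfbp3, Igfbp4, Socs2 and Stat5b. They were taken by symbol from the deposited expression values, where all 10 were found among 17003 genes. Of these, 9 passed the filter on low values, at least 0.5 FPKM (a read count corrected for gene length and library depth) in at least 3 of 12 libraries, together with 14393 genes in all. Igf1r did not pass and is given by its values.

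RNA was sequenced from whole mouse liver tissue in 4 groups of 3 libraries. Normal livers came from WT C57BL/6 mice. The 9 tumor libraries came from hepatocellular carcinomas (HCCs) in which c-MYC and MCL1 were expressed from the EF1α promoter, together with Cre from the CMV promoter, after hydrodynamic tail vein injection. The injected mice carried floxed alleles (Rictor fl/fl and Tsc2 fl/fl) and were C57BL/6J. All tumors, the vehicle controls included, therefore carried both oncogenes and the RictorKO Tsc2KO genotype, and no injection is stated for the normal livers. The plasmids reach hepatocytes, so the other cells of a tumor sample kept the floxed alleles. As the sample labels have it, mice were gavaged from day 6 after injection, 6 days a week for 3 weeks, with vehicle, with MLN0128 (an ATP-competitive inhibitor of both mTOR complexes) at 1 mg/kg/day or with everolimus (a rapamycin analog that acts on mTORC1) at 1 mg/kg/day. By the same labels livers were collected 3.7 weeks after injection. The study's own text also gives 3 days for the treatment of the sequenced tumors. The sources thus differ on how long the drugs were given, and every drug difference below is for a duration that could not be settled. The age of the mice is not given in the sources used here. Nothing states whether the 3 tumors of a group came from separate mice, so the p-values measure the spread between these samples.

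In the liver, growth hormone binds its receptor (Ghr), which activates the kinase JAK2 and the transcription factor STAT5B. STAT5B drives Igf1, the main endocrine growth factor made by hepatocytes, and Igfals, the acid-labile subunit that holds IGF1 and IGFBP3 in the long-lived circulating complex. It also drives Socs2 and Cish, feedback inhibitors that shut the receptor off again. The IGF binding proteins carry IGFs and limit their access to the signaling receptor IGF1R, whereas IGF2R, the cation-independent mannose 6-phosphate receptor, clears IGF2 and sorts lysosomal enzymes. Adult hepatocytes are known for making IGF1 while carrying very little IGF1R.

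The promoters of 9 of the 10 genes were searched in RefSeq GRCm38.p6 windows running from 250 bases before to 50 bases after each annotated start (14 windows over the 9 genes). No window was available for Socs2, so its promoter was not searched. One motif was the STAT5 type, TTCNNNGAA. The other was the E-box CACGTG, the type that MYC binds with MAX. Each reads the same on both strands, and no match of one overlapped a match of the other. The STAT5 motif stood in 2 of the 14 windows, both of Igfals, against 8.30% of 32851 mouse promoter windows. The E-box stood in 2 of the 14 windows, once in Igfbp2 and at 2 places in Igf2r, against 7.15% of all windows. The 4 windows shown are all those with a match. They are written 5′ to 3′ on the strand of the gene with the matched motif in capitals, and a match is a description of the letters only.
Igfals, chr17:24877594-24877893, plus strand: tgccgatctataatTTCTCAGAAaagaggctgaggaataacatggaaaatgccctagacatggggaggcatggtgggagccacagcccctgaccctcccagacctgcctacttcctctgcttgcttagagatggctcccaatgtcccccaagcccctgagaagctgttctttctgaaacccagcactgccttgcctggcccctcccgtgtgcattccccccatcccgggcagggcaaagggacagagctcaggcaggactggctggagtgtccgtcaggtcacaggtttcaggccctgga
Igfals, chr17:24877981-24878280, plus strand: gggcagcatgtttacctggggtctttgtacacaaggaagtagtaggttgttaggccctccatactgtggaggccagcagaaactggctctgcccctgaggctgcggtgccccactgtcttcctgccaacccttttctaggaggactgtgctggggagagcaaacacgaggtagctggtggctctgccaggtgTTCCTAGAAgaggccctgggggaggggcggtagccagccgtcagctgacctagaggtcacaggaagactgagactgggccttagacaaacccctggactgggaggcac
Igf2r, chr17:12769657-12769956, minus strand: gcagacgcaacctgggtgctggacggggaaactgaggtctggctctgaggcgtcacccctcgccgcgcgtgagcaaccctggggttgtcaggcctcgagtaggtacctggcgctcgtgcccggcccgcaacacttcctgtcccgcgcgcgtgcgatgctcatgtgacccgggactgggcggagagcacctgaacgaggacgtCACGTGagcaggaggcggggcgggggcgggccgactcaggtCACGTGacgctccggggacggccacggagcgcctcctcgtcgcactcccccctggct
Igfbp2, chr1:72824230-72824529, plus strand: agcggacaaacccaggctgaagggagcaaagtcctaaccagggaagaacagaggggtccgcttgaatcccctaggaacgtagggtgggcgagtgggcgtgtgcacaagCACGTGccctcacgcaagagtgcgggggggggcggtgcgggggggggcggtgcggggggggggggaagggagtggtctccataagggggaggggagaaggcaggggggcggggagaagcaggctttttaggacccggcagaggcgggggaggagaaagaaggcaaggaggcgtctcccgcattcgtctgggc

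Libraries were compared before the genes. The deposited FPKM gave back 17163885 to 25179555 reads per library when multiplied by exon length. They also carry a factor per library beyond depth and length, which ran from 0.585 to 0.596 for the normal livers and from 1.101 to 1.368 for the tumor libraries. MLN0128 replicates 1 and 2 held Xist RNA at 191 and 155 FPKM, against at most 0.0699 in the other 10 libraries, and were listed at 0 for the Y-linked genes Ddx3y, Eif2s3y, Kdm5d and Uty. Many growth hormone responses of mouse liver differ between the sexes, so the MLN0128 differences of the IGF and growth hormone genes that passed are also given without these 2 libraries where that changed a call. The targeted gene Tsc2 was 2.01 to 2.31 FPKM in vehicle tumors and 4.50 to 5.32 FPKM in normal liver (-0.91, log2, treat, adjusted p = 0.0253). Rictor was 1.05 to 1.5 FPKM and 1.65 to 2.57 FPKM (-0.44, moderated test, adjusted p = 0.0115, not called by treat). In MLN0128 and everolimus tumors Rictor was 1.65 to 2.21 FPKM and 1.58 to 1.93 FPKM, which overlaps normal liver. Tsc2 was 2.81 to 3.96 FPKM and 2.78 to 2.87 FPKM, in every library below every normal liver. By treat 0 of these 2 genes were called against normal liver in either drug group, and by the moderated test 1 was lower in each. These are values of whole genes in whole tissue, so they check the deletions in part only. The 9 hepatocyte markers were all present in every tumor, but their summed level was 4581 to 6952 FPKM in vehicle tumors, 2106 to 4784 with MLN0128 and 3829 to 8585 with everolimus, against 82970 to 103000 in normal liver. Of the 9, Cyp2e1, Alb and Tat differed most in vehicle tumors (-8.93, -5.50 and -3.09, log2). In whole tissue, fewer hepatocytes and less RNA per hepatocyte cannot be told apart.

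Vehicle tumors held far less RNA of the growth hormone to IGF1 route than normal liver. Igf1, its carrier Igfals, the receptor Ghr and the feedback inhibitor Socs2 were all lower than in normal liver, and so were the binding proteins Igfbp2 and Igfbp4. Igf2r was higher. In total 6 of the 9 tested genes were called lower and 1 was called higher, where called means that limma's treat, which asks whether a change exceeds 1.5-fold, gave an adjusted p under 0.05. Over all 14393 genes, 16.8% were called lower and 15.9% higher in this comparison.

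Igf1 (ENSMUSG00000020053.18, chr10:87858265-87937042, plus strand of GRCm38), the ligand, stood at 181, 169 and 157 FPKM in normal liver and at 2.25, 1.24 and 2.77 FPKM in vehicle tumors. In MLN0128 tumors it was 3.63, 3.61 and 2.09 FPKM, and in everolimus tumors 3.24, 9.16 and 2.16 FPKM. Every tumor library was thus far below every normal liver, and among the tumors everolimus replicate 2 stood highest. The ratio of the group means was 81.0-fold, and the difference between vehicle tumors and normal liver was -5.81 ± 0.36 on the log2(FPKM + 1) scale (SE, n = 3 and 3, treat, adjusted p = 2.6e-07). This scale understates the change of genes near 1 FPKM.

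Igfals (ENSMUSG00000046070.9, chr17:24865997-24882010, plus strand), the carrier subunit whose 2 promoter windows hold the STAT5 motif, stood at 81.9, 82.7 and 56.7 FPKM in normal liver. It was 1.79, 1.06 and 2.24 FPKM in vehicle tumors, 1.83, 1.16 and 0.832 FPKM with MLN0128 and 1.78, 2.80 and 0.875 FPKM with everolimus. The tumor groups overlapped each other and none reached normal liver. Vehicle tumors were 43.5-fold lower by the means, a difference of -4.80 ± 0.27 (log2, treat, adjusted p = 1.6e-07).

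Among the binding proteins, Igfbp2 (ENSMUSG00000039323.18, chr1:72824503-72852474, plus strand), an abundant hepatocyte product that rises in fasting and falls with growth hormone, was 342, 498 and 448 FPKM in normal liver and 32.1, 18.5 and 47.6 FPKM in vehicle tumors. It was 63.3, 170 and 43.2 FPKM with MLN0128 and 184, 144 and 171 FPKM with everolimus. The everolimus libraries lay between the vehicle tumors and normal liver without touching either, whereas the MLN0128 libraries ran from the vehicle range into the everolimus range. The vehicle tumors were 13.1-fold below normal liver by the means, at -3.75 ± 0.44 (log2, treat, adjusted p = 5.9e-05). The Igfbp2 promoter window holds an E-box, as does that of Igf2r, which was higher in the tumors.

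Igfbp4 (ENSMUSG00000017493.12, chr11:99041244-99054392, plus strand), which restrains IGF action until it is cleaved by the protease PAPP-A, was the most abundant of the 10 genes per length in normal liver. It stood there at 609, 629 and 532 FPKM, against 140, 122 and 129 FPKM in vehicle tumors, 228, 201 and 145 FPKM with MLN0128 and 142, 166 and 159 FPKM with everolimus. All tumor libraries were below normal liver and both drug groups lay just above the vehicle tumors. The vehicle tumors were 4.53-fold lower by the means, at -2.17 ± 0.17 (log2, treat, adjusted p = 7.9e-06).

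Igfbp3 (ENSMUSG00000020427.11, chr11:7206086-7213923, minus strand), the main carrier of circulating IGF1, which liver makes mostly outside hepatocytes, was 13.5, 25.7 and 16.0 FPKM in normal liver and 7.87, 15.9 and 9.61 FPKM in vehicle tumors. It was 4.59, 3.94 and 6.48 FPKM with MLN0128 and 8.32, 5.50 and 14.8 FPKM with everolimus. Normal liver and vehicle tumors overlapped. Their difference, -0.68 ± 0.34 (log2, 95% interval -1.43 to 0.06), did not pass (moderated test, adjusted p = 0.0938), and it became 0.19 when libraries were scaled by plain read totals. The 8 endothelial markers summed to 76.6 to 91.7 FPKM in normal liver and 15.5 to 22.5 FPKM in vehicle tumors, with 5 of 8 called lower, among them Clec4g, Fcgr2b and Oit3, and their part in the Igfbp3 level was not tested.

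The receptors went in different directions. Ghr (ENSMUSG00000055737.12, chr15:3317760-3583492, minus strand) was 135, 120 and 125 FPKM in normal liver, 10.7, 7.24 and 11.3 FPKM in vehicle tumors, 10.1, 13.4 and 6.88 FPKM with MLN0128 and 7.32, 9.41 and 8.94 FPKM with everolimus. The 3 tumor groups overlapped, and vehicle tumors were 13.0-fold below normal liver by the means, at -3.59 ± 0.21 (log2, treat, adjusted p = 2.9e-07).

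Igf2r (ENSMUSG00000023830.14, chr17:12682406-12769664, minus strand), the clearance receptor with 2 E-boxes in its window, was 6.45, 6.79 and 5.38 FPKM in normal liver. It was 25.5, 33.8 and 30.3 FPKM in vehicle tumors, 47.7, 38.2 and 30.1 FPKM with MLN0128 and 33.6, 30.5 and 28.1 FPKM with everolimus. It was the 1 called gene that was higher in every tumor library than in every normal liver, 4.81-fold by the means of vehicle and normal liver, at 2.09 ± 0.17 (log2, treat, adjusted p = 1.0e-05). Another annotated gene lies across the span of Igf2r, and another across that of Igf1, without sharing exon bases, and whether reads were assigned by strand is not given in the sources used here.

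Igf1r (ENSMUSG00000005533.10, chr7:67952827-68233668, plus strand), the signaling receptor, was near the floor everywhere. It was 0.177, 0.221 and 0.245 FPKM in normal liver, 0.106, 0.141 and 0.184 FPKM in vehicle tumors, 0.392, 0.243 and 0.209 FPKM with MLN0128 and 0.189, 0.171 and 0.108 FPKM with everolimus, from 32 to 187 recovered reads per library. Only the MLN0128 libraries lay wholly above the vehicle tumors. In a test on recovered reads that kept genes with at least 10 reads in 3 libraries, added after the data had been seen, Igf1r in vehicle tumors differed from normal liver by -0.60 ± 0.38 (log2, limma voom, adjusted p = 0.188).

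The signaling genes also parted. Socs2 (ENSMUSG00000020027.18, chr10:95385362-95417180, minus strand), the feedback inhibitor, was 6.51, 5.65 and 2.30 FPKM in normal liver and 0.211, 0.204 and 0.257 FPKM in vehicle tumors. It was 0.325, 0.354 and 0.307 FPKM with MLN0128 and 0.344, 0.814 and 0.257 FPKM with everolimus. No tumor library came near normal liver. The means differed 21.5-fold, and the difference was -2.16 ± 0.25 on the log2(FPKM + 1) scale (treat, adjusted p = 1.8e-04) and -4.29 ± 0.55 (log2) in the test on recovered reads.

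Stat5b (ENSMUSG00000020919.11, chr11:100780731-100850724, minus strand), the transcription factor, was 10.6, 11.8 and 12.9 FPKM in normal liver and 13.5, 19.6 and 16.4 FPKM in vehicle tumors. It was 30.7, 32.9 and 18.2 FPKM with MLN0128 and 23.0, 25.4 and 25.2 FPKM with everolimus. The vehicle libraries lay just above normal liver without passing the test (0.44 ± 0.20, log2, moderated test, adjusted p = 0.0654). Stat5b was thus not among the genes that were lower, while Igf1, Igfals and Socs2, targets of its protein, were. Scaling by plain read totals moved the median of all genes from 0.06 to 0.62 (log2) and the calls over all genes from 2282 higher and 2425 lower to 5204 higher and 1121 lower. On that scale Stat5b was called higher (1.29, treat, adjusted p = 0.00295), and the 6 genes called lower and Igf2r were still called.

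**Figure D1:**
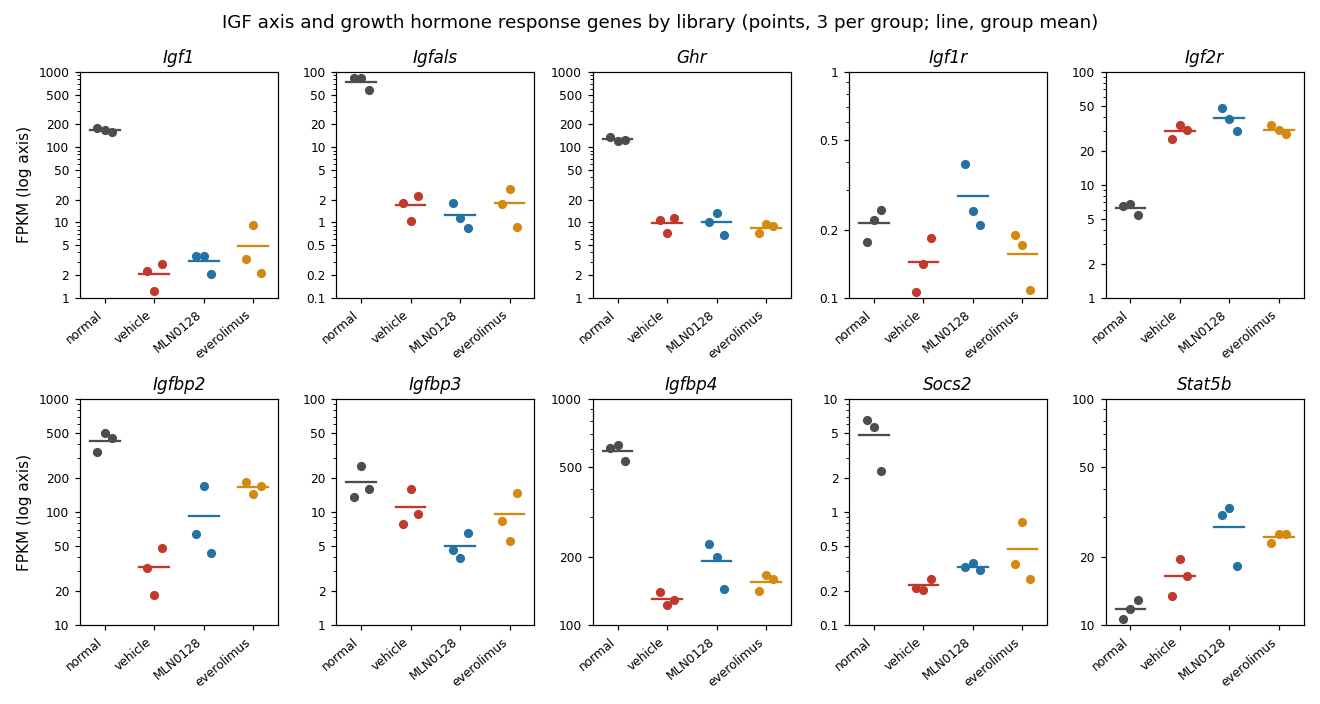
FPKM on a log axis (y) of each of the 10 genes in normal liver and in vehicle, MLN0128 and everolimus tumors (x), 1 point per library and a line at the group mean. Igf1, Igfals, Ghr, Socs2, Igfbp2 and Igfbp4 are lower in all 9 tumor libraries than in all 3 normal livers, and Igf2r is higher.

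Ratios of genes within 1 library do not depend on the scaling between libraries. Igf1 to Ghr was 1.26 to 1.41 in normal liver and 0.171 to 0.245 in vehicle tumors, so the ligand was lower by more than its upstream receptor. Igf1 to Igfals was 2.04 to 2.77 in normal liver and 1.17 to 1.26 in vehicle tumors. Socs2 to Stat5b was 0.178 to 0.614 in normal liver and 0.0104 to 0.0157 in vehicle tumors. Igf2r to Igf1r, both per length, was 21.96 to 36.44 in normal liver and 165 to 241 in vehicle tumors, so that clearance receptor RNA outweighed signaling receptor RNA by more in the tumors. Each of these ratios was separated between the groups. In all, 7 ratios were computed. They were tested as differences of log2(FPKM + 1), which at low FPKM do depend on the scaling. On that scale Socs2 to Stat5b differed by -2.61 between vehicle tumors and normal liver, against -4.78 with no pseudocount. Each of the 7 gave p = 0.1 in an exact permutation test (two-sided), the smallest that 3 against 3 libraries allow.

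The genes were also set against the mean log2 level of the 9 hepatocyte markers in the same library. Relative to those markers the difference between vehicle tumors and normal liver was -2.72 for Igf1 (log2), -1.70 for Igfals, -0.66 for Igfbp2 and -0.49 for Ghr. Igfbp4, Socs2, Igfbp3, Stat5b and Igf2r stood higher relative to the markers, by 0.93, 0.93, 2.41, 3.54 and 5.19. All 10 genes, Igf1r included (3.01 higher), gave an exact permutation p of 0.1, the smallest possible. With Alb as the single reference, Igf1 differed by -0.32, whereas Igfals, Ghr and Igfbp2 stood 0.70, 1.91 and 1.75 higher, so that these 3 directions rest on which markers are taken. With a pseudocount of 0.1 in place of 1, Socs2 differed by -0.67 relative to the 9 markers.

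The make-up of binding protein RNA also differed. Igfbp4 and Igfbp2 made up 43.0% to 55.8% and 31.3% to 36.2% of the summed FPKM of Igfbp1 to Igfbp7 in normal liver, and Igfbp1 made up 1.30% to 10.5%. In vehicle tumors Igfbp1 made up 66.2% to 85.1%, Igfbp4 9.70% to 20.02% and Igfbp2 1.47% to 6.65%. The family's summed FPKM was 1092 to 1383 in normal liver and 699 to 1257 in vehicle tumors, ranges that overlapped.

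**Figure D2:**
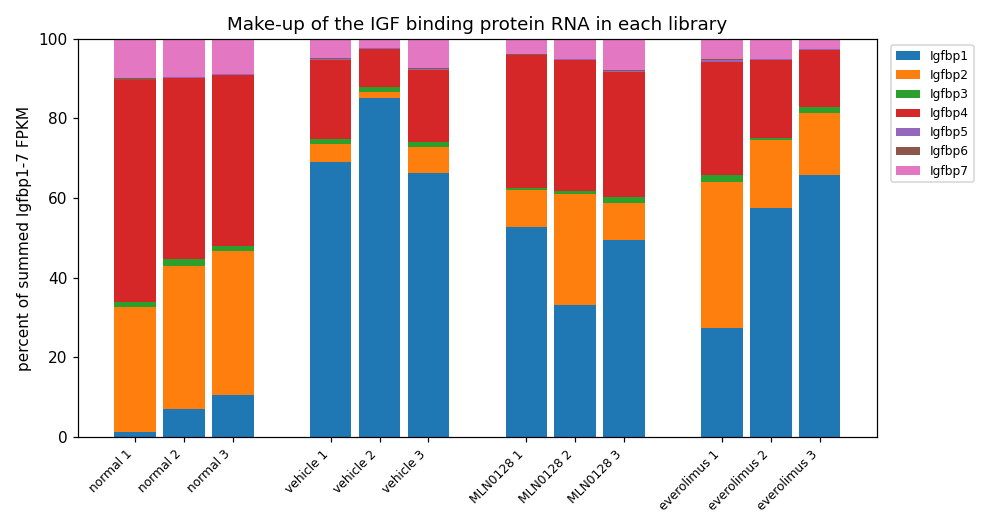
Percent of the summed FPKM of Igfbp1 to Igfbp7 (y, stacked bars) in each of the 12 libraries (x). Igfbp4 and Igfbp2 fill most of the normal liver bars, Igfbp1 fills 66.2% to 85.1% of the vehicle bars, and Igfbp2 takes up 15.6% to 36.9% with everolimus.

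Other genes of the IGF axis were counted from a list. This list, like the growth hormone and sex-biased lists below, was chosen with earlier results of these data known. Of 17 genes listed, 16 were found and 14 were tested, and 6 were called higher and 1 lower in vehicle tumors (median 0.72, log2, against 0.06 over all genes). The shares called over all genes were 15.9% higher and 16.8% lower. Igf2, the fetal ligand that IGF2R clears, was 0.0162, 0 and 0 FPKM in normal liver and 57.0, 50.5 and 52.2 FPKM in vehicle tumors, a difference of 5.75 ± 0.21 (log2, treat, adjusted p = 4.8e-09). No fold is given against a group listed at 0 in 2 of its 3 libraries. Grb10, an imprinted adaptor that dampens insulin and IGF1 receptors, was 0.622 to 1.20 FPKM in normal liver and 28.0 to 30.4 FPKM in vehicle tumors (3.92 ± 0.35, treat, adjusted p = 7.0e-06). Igfbp1, the binding protein that insulin represses, was 14.2, 95.9 and 130 FPKM in normal liver and 483, 1070 and 474 FPKM in vehicle tumors (3.44 ± 0.77, treat, adjusted p = 0.0069). Stc2, an inhibitor of PAPP-A, the RNA-binding protein gene Igf2bp3 and the insulin receptor substrate Irs2 were called higher too, by 2.87, 2.19 and 1.49. Igfbp7 was the 1 gene of the list called lower, by -1.63.

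In the growth hormone receptor signaling list, 12 of 13 genes were tested, and 0 were called higher and 2 lower in vehicle tumors (median -0.44). The shares over all genes were 15.9% and 16.8%. By the moderated test 4 of the 12 were higher and 6 lower, against 5176 higher and 4750 lower of all 14393 genes. Prlr, the prolactin receptor, was 7.0 to 12.4 FPKM in normal liver and 0.204 to 1.48 FPKM in vehicle tumors (-2.48 ± 0.27, treat, adjusted p = 7.1e-05). Cish, the second feedback inhibitor, was 10.4, 2.51 and 5.36 FPKM in normal liver and 0.284, 0.887 and 0.301 FPKM in vehicle tumors (-2.11 ± 0.33, treat, adjusted p = 0.0015). The kinase Jak2 stood at 5.46 to 6.53 FPKM in normal liver and 2.56 to 4.04 FPKM in vehicle tumors, lower by the moderated test (-0.77, adjusted p = 0.0026) but not called. Stat5a, Ptpn2 and Ptpn11 went the other way, with every vehicle library above every normal liver. They stood at 1.05 to 1.65, 5.73 to 7.12 and 15.2 to 17.5 FPKM in normal liver. In vehicle tumors they stood at 2.59 to 3.14, 10.6 to 13.2 and 24.1 to 29.0 FPKM.

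Genes that respond to the pulsatile growth hormone of male mice were lower almost as a block. Of 11 male-biased genes, all tested, 10 were called lower and 0 higher in vehicle tumors (median -6.15), against 16.8% and 15.9% of all genes. Hsd3b5, a steroid-metabolizing enzyme, was 438 to 658 FPKM in normal liver and listed at 0 in all 3 vehicle tumors. Slco1a1, an organic anion transporter, went from 385 to 494 FPKM in normal liver to 0.719 to 1.32 FPKM in vehicle tumors (-7.76 ± 0.31, treat, adjusted p = 8.2e-09). Cyp4a12a, a fatty acid hydroxylase, was 337 to 450 FPKM against 0.431 to 3.86 FPKM (-7.22 ± 0.42, treat, adjusted p = 1.5e-07). It has a close paralog, Cyp4a12b, with which it may share reads. The 1 gene of the list not called was Bcl6, the repressor of female-biased genes (-0.14). Most of this list is also strongly made by adult hepatocytes, and the 9 hepatocyte markers had a median of -2.43 in the same comparison, with 7 called lower and 0 higher.

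Of 16 female-biased genes listed, 11 were tested, with 2 called higher and 2 lower (median -0.03), against 15.9% and 16.8% of all genes. Cyp2a4 was 729 to 1030 FPKM in normal liver and 5.4 to 51.8 FPKM in vehicle tumors (-5.33 ± 0.80, treat, adjusted p = 3.1e-04). Lifr, the leukemia inhibitory factor receptor, was 52.9 to 97.0 FPKM against 0.999 to 2.03 FPKM (-4.86 ± 0.23, treat, adjusted p = 4.0e-08). Sult2a1, a steroid sulfotransferase, was 0.182, 0 and 0 FPKM in normal liver and 13.8, 7.25 and 11.1 FPKM in vehicle tumors (3.43 ± 0.81, treat, adjusted p = 0.0092), and Cyp3a16 was called higher by 1.29. The normal livers and vehicle tumors all held Y-linked RNA and no Xist RNA above 0.0267 FPKM.

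**Figure D3:**
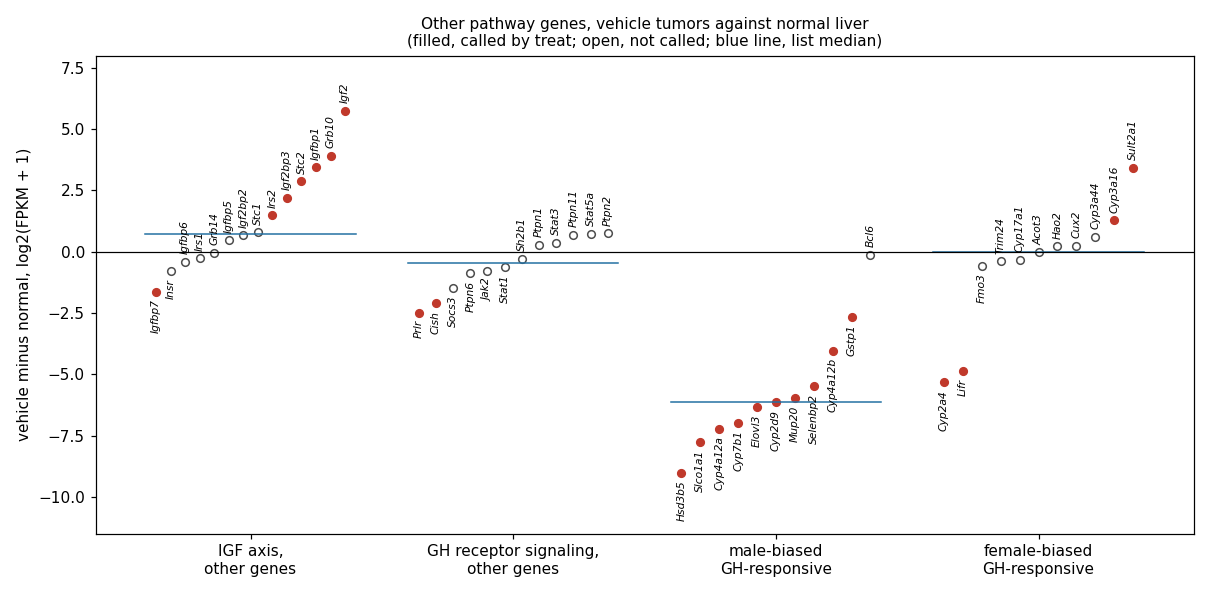
Difference between vehicle tumors and normal liver on the log2(FPKM + 1) scale (y) for each tested gene of 4 lists (x). Filled points were called by treat, open points were not, and the blue line is the list median: 10 of 11 male-biased genes are filled and below 0, and 6 of the 14 other IGF axis genes are filled and above 0.

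Markers of other cell types moved in the same comparison, and their part in the results on whole tissue was not tested. Of 11 stellate and fibroblast markers, 4 were called lower (among them Dcn and Lrat) and 3 higher (among them Col1a1), with sums of 89.9 to 124 FPKM in normal liver and 44.4 to 88.1 FPKM in vehicle tumors. Of 9 Kupffer cell and macrophage markers, 3 were called lower (among them Clec4f and Vsig4) and 1 higher (Cd68). Of 5 tested cholangiocyte markers, 3 were called higher (Krt19, Epcam and Sox9). Of 2 tested lymphocyte markers, 0 were called. No gene of these lists was at 0 in a whole group.

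MLN0128 tumors were compared with vehicle tumors next. MLN0128 inhibits the mTOR kinase, and Rictor, which mTORC2 needs, was targeted in all tumors. By treat 0 of the 9 genes were called, against 2.13% of all genes. By the moderated test with no fold threshold, 3 were higher (14.9% of all genes) and 1 was lower (17.1%). An unadjusted p under 0.05 was found for 4 of the 9 genes and for 6179 of all 14393 genes. Igfbp2 was higher by 1.32 ± 0.44 (log2, adjusted p = 0.0377), Stat5b by 0.66 ± 0.20 (adjusted p = 0.0253) and Igfbp4 by 0.53 ± 0.17 (adjusted p = 0.0328), and Igfbp3 was lower (-0.98 ± 0.34, adjusted p = 0.0459).

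None of these 4 differences stood in every library set. Leaving out both Xist-positive replicates, which rests the MLN0128 group on replicate 3 alone and assumes that it varies like the other groups, brought Igfbp2 to 0.49, Stat5b to 0.15, Igfbp4 to 0.16 and Igfbp3 to -0.64, with adjusted p of 0.475, 0.667, 0.617 and 0.434, and 0 of the 9 genes then differed. Leaving out MLN0128 replicate 2 alone, the library with 170 FPKM, brought Igfbp2 to 0.76 (adjusted p = 0.108). Each of the 4 genes also missed the threshold without MLN0128 replicate 1 (adjusted p of 0.0625 to 0.141) and without MLN0128 replicate 2 (0.0786 to 0.123). Leaving out single vehicle libraries ended these calls as well, in Igfbp4 for any of the 3, in Igfbp2 for replicates 1 and 2, in Stat5b for replicates 1 and 3 and in Igfbp3 for replicates 2 and 3, with adjusted p of 0.0566 to 0.156. Leaving out a normal liver or everolimus library, which changes only the shared spread, brought Igfbp2 to at most 0.0503 and Igfbp3 to at most 0.0582. The Xist status and the drug cannot be told apart in replicates 1 and 2.

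For the growth hormone to IGF1 genes, no difference between MLN0128 and vehicle passed, and all libraries stayed far below normal liver. Igf1 differed from vehicle by 0.42 (95% interval -0.36 to 1.20), Igfals by -0.24 (-0.83 to 0.34), Ghr by 0.03 (-0.43 to 0.49) and Socs2 by 0.12 (-0.43 to 0.67). The difference for Igf2r was 0.35 (-0.02 to 0.71). Igf1r, whose 3 libraries lay above the vehicle libraries, differed by 0.96 ± 0.33 in the test on recovered reads (limma voom, adjusted p = 0.0386), where treat gave an adjusted p of 0.599. In the only other setting that tested Igf1r, with no filter on low values, it did not pass (moderated test, adjusted p = 0.0780). The Xist-negative replicate 3 held 0.209 FPKM of it, against at most 0.184 FPKM with vehicle. Its difference without the Xist-positive libraries was not tested. Of hepatocyte markers, 1 of 9 (Tat, -3.36) was called lower and 0 higher. By the moderated test 4 of the 9 were lower (17.1% of all genes) and 1 higher (14.9%), with a median of -0.84. Of the cholangiocyte markers Krt19 (-4.05) and Sox9 (-1.51) were called lower, and by the moderated test the macrophage markers Cd68 (-1.60) and C1qa (-1.03) were lower and the stellate marker Des (0.59) higher. Their part in the differences above was not tested.

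Everolimus tumors differed from vehicle tumors in 1 of the 9 genes. Igfbp2 was 184, 144 and 171 FPKM against 32.1, 18.5 and 47.6 FPKM, so that the lowest everolimus library was above the highest vehicle library. By the means it was 5.08-fold higher, at 2.40 ± 0.44 (log2, 95% interval 1.45 to 3.35, moderated test, adjusted p = 0.0067). It was not called against a fold change of 1.5 (treat, adjusted p = 0.0916), and 0 of 9 genes were called by treat against 0.604% of all genes. Over all genes, 3.77% were higher and 6.04% lower by the moderated test, where of the 9 genes 1 was higher and 0 lower. An unadjusted p under 0.05 was found for 2 of the 9 genes and for 3864 of all 14393 genes.

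Igfbp2 passed the moderated test in the main setting and in all 25 alternatives, with differences of 2.05 to 2.71 and adjusted p of 0.0010 to 0.0342. Under treat it was called in 6 of them, among them both tests on recovered reads (adjusted p = 0.0445 and 0.0368). The ratio of Igfbp2 to Igfbp4 within a library was 0.868 to 1.30 with everolimus and 0.152 to 0.369 with vehicle, an exact permutation p of 0.1, the smallest possible. Relative to the 9 hepatocyte markers Igfbp2 was 2.51 higher with everolimus than with vehicle (exact permutation p = 0.1). Against normal liver it was still lower with everolimus (-1.35 ± 0.44, moderated test, adjusted p = 0.0151, treat, adjusted p = 0.131). This last difference rests on the scaling: it was -0.41 with plain read totals and -0.17 with FPKM brought to equal sums (moderated test, adjusted p = 0.365 and 0.700).

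The other genes did not pass under everolimus. Stat5b was higher in every everolimus library than in every vehicle library, at 0.56 ± 0.20 (log2, adjusted p = 0.0971). Igf1 differed by 0.77 (95% interval -0.01 to 1.55), and its libraries at 3.24 and 2.16 FPKM lay in or next to the vehicle range while everolimus replicate 2 stood at 9.16 FPKM. That library was also the highest of the 9 tumor libraries in Igfals (2.80 FPKM), Socs2 (0.814 FPKM), Slco1a1 (6.13 FPKM) and the summed hepatocyte markers (8585 FPKM). Igfals, Ghr, Igf2r, Igfbp3, Igfbp4 and Socs2 differed by 0.03, -0.15, 0.05, -0.24, 0.25 and 0.25, with 95% intervals that all included 0. Among markers, Krt19 was called lower (-4.04), and by the moderated test Cyp2e1 was higher (3.04) and Tat (-2.07) and Cd68 (-1.56) lower, and their part in the Igfbp2 difference was not tested.

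**Figure D4:**
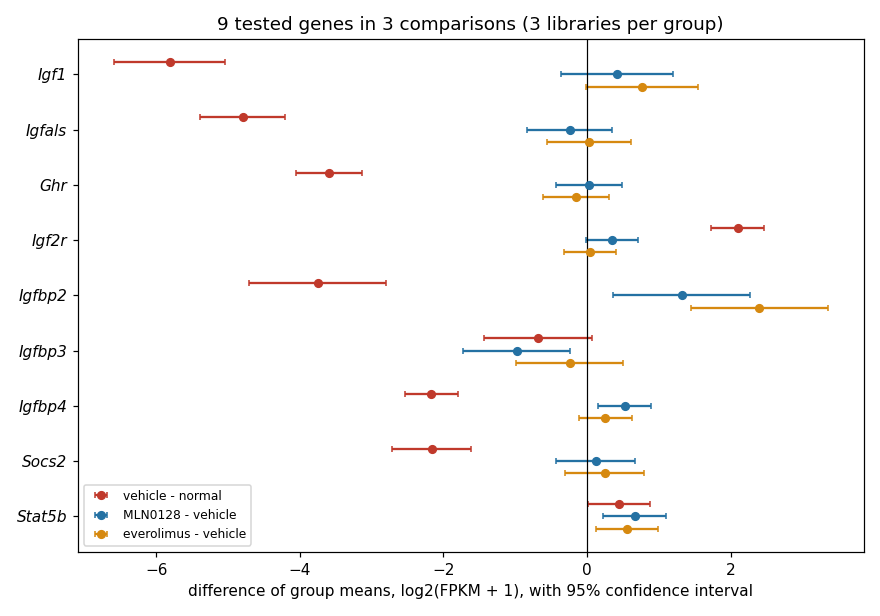
Difference of group means on the log2(FPKM + 1) scale with its 95% confidence interval (x) for the 9 tested genes (y) in 3 comparisons of 3 against 3 libraries. Vehicle against normal liver reaches -5.81 for Igf1 and 2.09 for Igf2r, and the largest drug difference is that of Igfbp2 with everolimus, 2.40.

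The 2 drugs were then set against each other at the same dose and time. MLN0128 and everolimus are both mTOR inhibitors but bind different sites. By treat, 0 of the 9 genes were called, against 0.0417% of all genes. By the moderated test 0 of 9 differed, against 9.53% of all genes. An unadjusted p under 0.05 was found for 3883 of all 14393 genes and for 1 of the 9. That gene was Igfbp2, lower with MLN0128 than with everolimus by -1.08 (95% interval -2.03 to -0.13, adjusted p = 0.137), with MLN0128 replicate 2 inside the everolimus range. The intervals for the other 8 tested genes all included 0. Igfbp3 (-0.74, -1.48 to 0.01) was the next largest, and Igf1 differed by -0.35 (-1.13 to 0.43). By the moderated test the macrophage marker Marco was lower with MLN0128 than with everolimus (-2.26, adjusted p = 0.0294). The intervals of the tested genes leave room for differences of over 1.5-fold in most of the genes.

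Both drug groups were also compared with normal liver. With MLN0128, 2 genes were called higher (17.1% of all genes) and 7 lower (20.1%). With everolimus 1 was higher (16.9%) and 5 lower (18.4%). These comparisons share the normal livers with the first one and are not independent of it. Igf1 was -5.39 ± 0.36 with MLN0128 and -5.04 ± 0.36 with everolimus, Igfals was -5.04 and -4.77, and Ghr was -3.56 and -3.74. With plain read totals or equal FPKM sums, 4 in place of 7 genes were called lower with MLN0128, the calls of Igfbp2, Igfbp3 and Igfbp4 being lost (-1.35, -0.68 and -0.56 with plain totals). Without both Xist-positive replicates 6 were called lower, and Igfbp3 was not (-1.32, treat, adjusted p = 0.213). Stat5b was called higher with MLN0128 (1.11 ± 0.20, treat, adjusted p = 0.0325), but not without both Xist-positive replicates (0.59, adjusted p = 0.841), without MLN0128 replicate 1 or 2 alone (1.00 and 0.95, adjusted p = 0.116 and 0.120), without normal liver replicate 1 or 2 (adjusted p = 0.0981 and 0.0638) or with only the compared groups in the model (adjusted p = 0.0676). By the moderated test it passed in all of these. With everolimus it was higher by the moderated test (1.00 ± 0.20, adjusted p = 7.5e-04) and not called (treat, adjusted p = 0.0787).

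Of the 4 pathway lists, 0 genes were called by treat in either drug comparison with vehicle. The moderated test gave single genes. With MLN0128, 1 of 14 other IGF axis genes was higher and 1 lower. Of 12 growth hormone receptor signaling genes, 1 was higher and 2 lower. Over all genes 14.9% were higher and 17.1% lower. With everolimus the IGF axis list had 1 higher and 1 lower, and the signaling list 1 higher and 0 lower. The shares over all genes there were 3.77% and 6.04%. Igf2bp2, an RNA-binding protein gene, was lower with both drugs (-0.74 and -0.78, adjusted p = 0.0019 and 0.0051) at 0.536 to 1.29 FPKM with vehicle, 0.0254 to 0.152 FPKM with MLN0128 and 0.0358 to 0.107 FPKM with everolimus. Sh2b1, an adaptor that enhances JAK2, was higher with both (0.69 and 0.48, adjusted p = 0.0022 and 0.0353). Ptpn11, the phosphatase SHP2, was lower with MLN0128 (-0.72, adjusted p = 8.1e-04). Insr, the insulin receptor, was higher with MLN0128 (0.35, adjusted p = 0.0497) and Irs1 with everolimus (0.46, adjusted p = 0.0495). Without both Xist-positive MLN0128 libraries, Ptpn11 still passed with MLN0128 (-0.76, adjusted p = 0.0188), whereas Igf2bp2 (-0.68, adjusted p = 0.0541), Sh2b1 (0.55, adjusted p = 0.0770) and Insr (0.07, adjusted p = 0.788) did not. Of the main setting and 25 alternatives, Insr passed in 11, and with everolimus Irs1 passed in 7 and Sh2b1 in 18.

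The sex-biased lists gave 2 more genes in the MLN0128 comparison, 1 of 11 male-biased and 1 of 11 female-biased genes. Gstp1 was lower (-0.75, adjusted p = 0.0063), and the female-biased regulator Cux2 was higher (0.99 ± 0.25, adjusted p = 0.0122). Cux2 stood at 2.44 and 1.83 FPKM in the 2 Xist-positive MLN0128 libraries, at 0.601 FPKM in the third, at 0.633 to 1.76 FPKM with everolimus and at 0.204 to 0.372 FPKM with vehicle. Without the Xist-positive libraries Cux2 did not pass (0.35, adjusted p = 0.394) and Gstp1 did (-0.84, adjusted p = 0.0393). Igf2 remained high in all drug-treated tumors, at 33.1 to 67.9 FPKM with MLN0128 and 71.2 to 94.5 FPKM with everolimus.

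**Figure D5:**
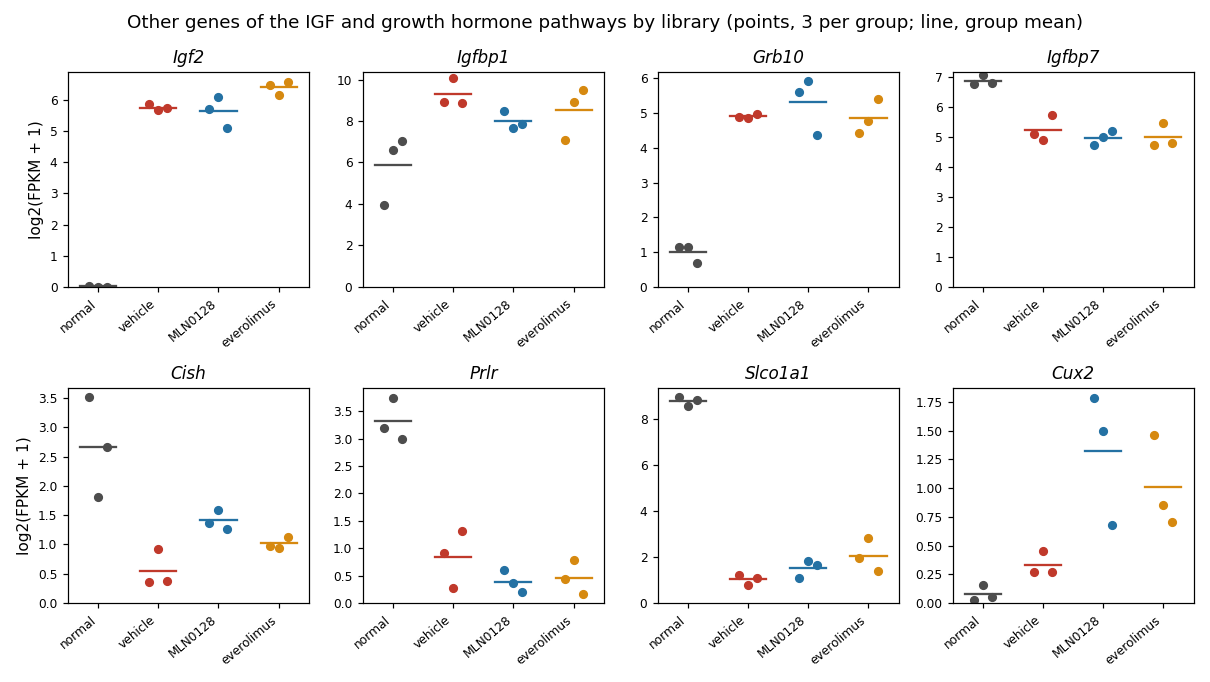
Level on the log2(FPKM + 1) scale (y) of 8 further pathway genes in the 4 groups (x), 1 point per library and a line at the group mean. Igf2 and Grb10 are near the floor in normal liver and high in every tumor, whereas Cish, Prlr and Slco1a1 are lower in all tumor libraries than in all normal livers.

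The genes whose pattern over the 12 libraries was most like each member were named by Pearson's r of log2(FPKM + 1). The libraries fall into 2 separate sets, normal and tumor, so a high r is a description of that shared contrast. Igf1 was most like Cmah, Rnf152 and Ugt3a2 (r = 0.999, 0.997 and 0.996) and, over the 9 tumor libraries alone, like Ablim3, Cmah and F5 (0.9861, 0.9749 and 0.9715). For Igfals the nearest were Dnase1l3, Sntg2 and Plxnc1 (0.998, 0.995 and 0.994), and for Ghr they were Lactb2, Narf and P2ry4 (0.996, 0.996 and 0.995). Igf2r was nearest to Exoc4, Slc19a1 and Gemin5 (0.993, 0.991 and 0.991), and Socs2 to Crybb3, Tex12 and Prok1 (0.995, 0.990 and 0.989). Igfbp4 was nearest to Agxt, Oaf and Klf12 (0.990, 0.987 and 0.987), Igfbp2 to Tpst1, St6galnac6 and Lman2l (0.970, 0.956 and 0.939) and Stat5b to Dcaf17, Pigl and Ddx17 (0.973, 0.960 and 0.953). Igfbp3 was nearest to Eif1, Dennd1b and Cdc123 (0.950, 0.919 and 0.915). Igf1r, at its low level, was nearest to 9430091E24Rik, Zzef1 and Zfp59 (0.931, 0.888 and 0.886).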

How the data were processed

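RNA-seq was made by the authors from 3 normal livers and 9 liver tumors, and the deposited table holds FPKM per gene for 12 libraries, with the build named as GRCm38 in the submitters' processing notes (FastQC 0.11.7). The authors tested counts with edgeR's glmTreat. The aligner is not given in the sources used here, and libraries were made by polyA capture or rRNA removal. Of 17007 rows, 4 with a repeated symbol were left out, and 22 symbols had been turned into dates. Groups came from the sample labels.

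FPKM were analyzed as log2(FPKM + 1) with limma 3.58.1 (R 4.3.3) in 1 model of 12 libraries and 4 group means with an intensity trend, after a filter of 0.5 FPKM in 3 libraries. Treat tested against a fold change of 1.5, with the moderated test beside it. Both were adjusted by Benjamini and Hochberg over 14393 genes and tested on simulated data. Ratios were tested as differences of log2(FPKM + 1) with exact permutation tests (scipy 1.17.1). Reads were recovered from FPKM and GENCODE M21 exon lengths, and 98.2% to 98.9% of values under 20 reads came out whole within 0.1 reads. In all, 25 alternatives were tried. The genes, lists and tests were chosen with earlier results of these data known. All 10 genes were named, with the 3 genes most like each. From each other list the 3 called genes with the largest difference between vehicle and normal liver were named, and in the drug comparisons up to 3 called genes or, with none called, the 2 with the smallest adjusted p under 0.05. The targeted genes and the Xist and Y-linked genes were named too. Genes named beyond this rule were chosen after their values were seen.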

Additional observations from a re-analysis of the deposited data

Results flagged for a closer look

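In 3 genes of the pathway lists the direct test found a difference between the MLN0128 and everolimus tumors at the same dose and time. They were 2 of 14 other IGF axis genes and 1 of 12 growth hormone receptor signaling genes. Each sex-biased list had 0 of 11. By the same moderated test 9.53% of all genes differed, a larger share than in the 4 pathway lists pooled. Of these lists only that of the other IGF axis genes, with 2 of 14, lay above it. The 3 genes are therefore described as single genes and not as a difference of the pathway. Igf2 was lower with MLN0128 (51.0, 67.9 and 33.1 FPKM) than with everolimus (89.0, 71.2 and 94.5 FPKM), a difference of -0.78 on the log2(FPKM + 1) scale (limma's moderated test, adjusted p = 0.0380). Irs1 was lower with MLN0128 (0.616, 0.775 and 1.07 FPKM) than with everolimus (1.30, 1.81 and 1.54 FPKM), a difference of -0.49 (adjusted p = 0.0421). Ptpn11 was lower with MLN0128 (17.1, 15.8 and 15.6 FPKM) than with everolimus (24.4, 24.2 and 27.5 FPKM), a difference of -0.62 (adjusted p = 0.0104). In all 3 genes every MLN0128 library, with and without Xist RNA, lay below every everolimus library. None was called by treat. The calls depend on the libraries and the model. Without MLN0128 replicates 1 and 2, Igf2 differed by -1.32 (adjusted p = 0.0116), whereas Irs1 (-0.30, adjusted p = 0.420) and Ptpn11 (-0.67, adjusted p = 0.0803) did not pass. With only the compared groups in the model none of the 3 passed (adjusted p = 0.156, 0.114 and 0.0739). Without everolimus replicate 3 none passed either (0.145, 0.130 and 0.0554), and Igf2 and Irs1 also did not pass without MLN0128 replicate 1 (0.1002 and 0.155) or everolimus replicate 1 (0.101 and 0.0565). Of the main setting and 25 alternatives, Igf2 passed in 16, Irs1 in 10 and Ptpn11 in 22. Over all 14393 genes, 1372 differed between the drugs by the moderated test, but 6 with only the compared groups in the model, 182 without everolimus replicate 3, 212 without MLN0128 replicate 1 and 166 without MLN0128 replicates 1 and 2.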

How the results depend on the processing

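The direction of each difference called between vehicle tumors and normal liver held under every alternative that gave a value. By limma's treat the genes called were 7 there, with 7 under each left-out library, 0 for MLN0128 against vehicle, 0 for everolimus against vehicle and 0 between the drugs. Against normal liver they were 9 with MLN0128 (7 to 9 with 1 library left out) and 6 with everolimus (6 to 7, and 8 without both MLN0128 replicates 1 and 2). Replicate numbers did not pair the samples (correlation of deviations -0.289 to 0.148 over 18 pairs of libraries), and the replicate block gave 7, 0, 0, 0, 9 and 6 genes called, with 22 in place of 23 in the 4 pathway lists and 28 in place of 30 member differences past the moderated test. Under the block the MLN0128 differences of Igfbp2 and Igfbp3 no longer passed (adjusted p = 0.0628 and 0.0557). Without the fold threshold, 4 genes differed with MLN0128, 1 with everolimus and 36 in the pathway lists. For everolimus against vehicle, 1 gene (Igfbp2) was also called with FPKM summing to 1 total in every library, with voom on recovered reads at either filter and without MLN0128 replicates 1 and 2, and leaving out 1 library gave 0 to 1, with 1 without MLN0128 replicate 2 or 3. Over all genes, treat called 306 for MLN0128 against vehicle (37 to 850 across alternatives, the lowest without MLN0128 replicates 1 and 2), 87 for everolimus against vehicle (38 to 212) and 6 between the drugs (2 to 19). The moderated test called 4605 (1759 to 5153), 1412 (536 to 1772) and 1372 (6 to 1649). Equal FPKM sums raised the treat calls against normal liver from 4707 to 8117 for vehicle, from 5356 to 9022 for MLN0128 and from 5076 to 7844 for everolimus.

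Directions that turned belonged to differences that had not been called by treat. Igfbp3 in vehicle tumors against normal liver was 0.19 with plain library totals and 0.45 with equal FPKM sums, and 0.17 in everolimus tumors with equal FPKM sums. In the main setting the everolimus difference of Igfbp3 from normal liver was -0.93 and had passed the moderated test (adjusted p = 0.0288). Without MLN0128 replicates 1 and 2, chosen after seeing the data, Ghr was -0.43 against vehicle, and against everolimus Ghr was -0.27, Igf2r -0.025, Igfbp4 -0.099 and Stat5b -0.41. Leaving out 1 library moved Ghr with MLN0128 against vehicle from -0.18 to 0.26. With everolimus against vehicle it moved Igfals from -0.22 to 0.29, Igf2r from -0.060 to 0.14 and Igfbp3 from -0.58 to 0.056. Between the drugs it moved Igf1 from -0.70 to 0.14, Ghr from -0.025 to 0.41, Socs2 from -0.23 to 0.032 and Stat5b from -0.048 to 0.36. The cause was not tested.

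Relative to hepatocyte markers, a pseudocount of 0.1 gave -3.21 for Igf1, -2.27 for Igfals and -0.67 for Socs2. With Alb alone the values were -0.32 for Igf1, 0.70 for Igfals, 1.91 for Ghr, 5.41 for Igf1r, 7.59 for Igf2r, 1.75 for Igfbp2, 4.82 for Igfbp3, 3.33 for Igfbp4, 3.34 for Socs2 and 5.94 for Stat5b. With no pseudocount the log2 ratios were -2.69 for Igf1 to Ghr, -2.86 for Igf1r to Igf2r and -4.78 for Socs2 to Stat5b. Igf1r and Socs2 had as few as 32 and 41 recovered reads in a library, which limits their precision.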
